A study of Gallus gallus with 2 samples.

Results

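Expression of 69 genes of DNA replication and the cell cycle was compared in hearts of chicken (Gallus gallus) embryos given the nitric oxide donor spermine NONOate or phosphate-buffered saline. The rule that selects them reads gene symbols only, and it was written with earlier results of these data known. They comprise the MCM, ORC, GINS and RFC families, subunits of DNA polymerases alpha, delta and epsilon, cyclins A, B, D and E, numbered CDKs and CDKN genes, and CDC6, CDC7, CDC20, CDC25A, CDC45, CDT1, GMNN and PCNA. They were 69 of 16737 genes, and each stood on a single row of the annotation. Of these, 64 reached an average of 1 FPKM (fragments per kilobase of transcript, relative to all mapped fragments) over the libraries and are called measured here, and 5 lay below it. No row matched the symbols CDK4, MCM7, MCM10, POLD1, POLD4, POLE4, CCNB1, CDC25B or CDKN1C, which are not analysed here.

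Fertilised eggs, called brown leg horn in the labels, were kept at 37 °C for 24 h. They then received a single 20 µl dose through the air sac, of 1X PBS in the control group and of 10 µM spermine NONOate in the NO group, and hearts were removed at 45 h, a time the labels do not clearly count from incubation or from injection. Each group is represented by a single library from a pool of 10 hearts. Neither group was given spermine, which the donor leaves behind when it has released nitric oxide. With 1 library per group no difference below has a replicate check, a test or a p-value. Ranges in brackets after a level are the deposited 95% intervals, which cover estimation within a library and not variation between pools.

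The replication machinery is loaded before it is used. In G1 the origin recognition complex, CDC6 and CDT1 place rings of the MCM2-7 helicase on DNA, a step called licensing, and geminin (GMNN) blocks CDT1 once S phase has begun. CDC7, CDC45 and the GINS complex then turn the rings into moving helicases, and polymerases held by the PCNA clamp, which the RFC complex loads, copy the strands. Cyclins D and E with CDK2, CDK4 and CDK6 drive entry into S phase, cyclins A and B with CDK1 drive the passage to mitosis, and CDKN proteins restrain these kinases. Heart muscle cells of the embryo divide while they contract, and this ability is largely lost after birth or hatching.

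The members with the largest differences were mostly replication genes, but some other replication genes differed little. The origin loading factors CDC6 and CDT1 and the helicase subunit MCM5 were each at least 2-fold lower in the NO library. So were the polymerase subunit POLE, the clamp loader subunit RFC5 and the phosphatase CDC25A, on the scale used here. The replication genes PCNA and GMNN differed by −0.06 and 0.06 on the log2 scale, and the cyclin gene CCNB2 by −0.08. Each difference is the log2 of FPKM + 1 in NO minus that in control, a scale that shrinks the differences of low genes. Of the 64 measured members, 16 were at least 1.5-fold lower and 2 were higher by that fold. The lower members make up 25%, and among all 10824 measured genes 22.4% were lower and 9.59% higher by the same fold. The members' share of lower genes was thus close to that of the transcriptome, and their share of higher genes was below it. At 2-fold, 6 were lower and 1 higher, against 10.3% and 3.65% of all genes. The 6 lower members are 9.38% of those measured, so their share was not above that of all genes. After a trimmed mean scaling 11 members were lower and 2 higher, beside 18.04% and 12.9% of all genes.

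The median log2 difference of the members was −0.32, or 1.25-fold lower, and that of all genes was −0.11. Members lay within a narrower band than other genes, with quartiles of −0.51 and −0.01 against −0.52 and 0.22. A total of 49 of 64 lay below 0, as did 58.7% of all genes, and 43 of 64 did so after trimmed mean or upper quartile scaling. The deposited intervals of the libraries were apart and lower for 43 members and apart and higher for 6, against 43.6% and 27.4% of all genes. Intervals narrow with depth, so these shares are not like for like. Interval widths imply a median of 1359 fragments per member in control and 1640 in NO, against 715 and 977 among all genes. Across the 64 members, which share both libraries, Pearson's r of log2(FPKM + 1) in control and NO was 0.93, and it was 0.92 across all genes. The members' FPKM summed to 2524 in control and 2086 in NO, which is 0.518% and 0.389% of each library's total.

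Transcript levels of cell type markers also differed between the libraries. All 10 cardiomyocyte markers were higher in the NO library, with a summed level of 2418 FPKM in control and 16048 FPKM in NO. Of these, 9 were at least 2-fold higher, whereas NKX2-5 was at 80.0 and 95.2 FPKM, 1.19-fold higher. All 5 neural markers with a row were lower (197 and 39.9 FPKM summed, with ZIC1 listed at 0 in the NO library), as were all 5 endoderm markers (1010 and 209 FPKM), all 4 neural crest markers (179 and 13.3 FPKM) and all 5 somite markers (34.5 and 2.39 FPKM, with MSGN1 listed at 0 in the NO library). Of the somite markers, 2 (TCF15 and PAX3) reached an average of 1 FPKM, and MSGN1, TBX6 and MYF5 lay below it. All 5 erythroid markers were higher (261 and 3402 FPKM). The part of these shifts in the values below was not tested, and in pooled tissue fewer cells of a type and less RNA per cell cannot be told apart. Depth was sufficient for the measured members, since the interval widths imply a median of 1359 fragments per member in control and 1640 in NO, and at least 61.1 and 184.

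**Figure D1:**
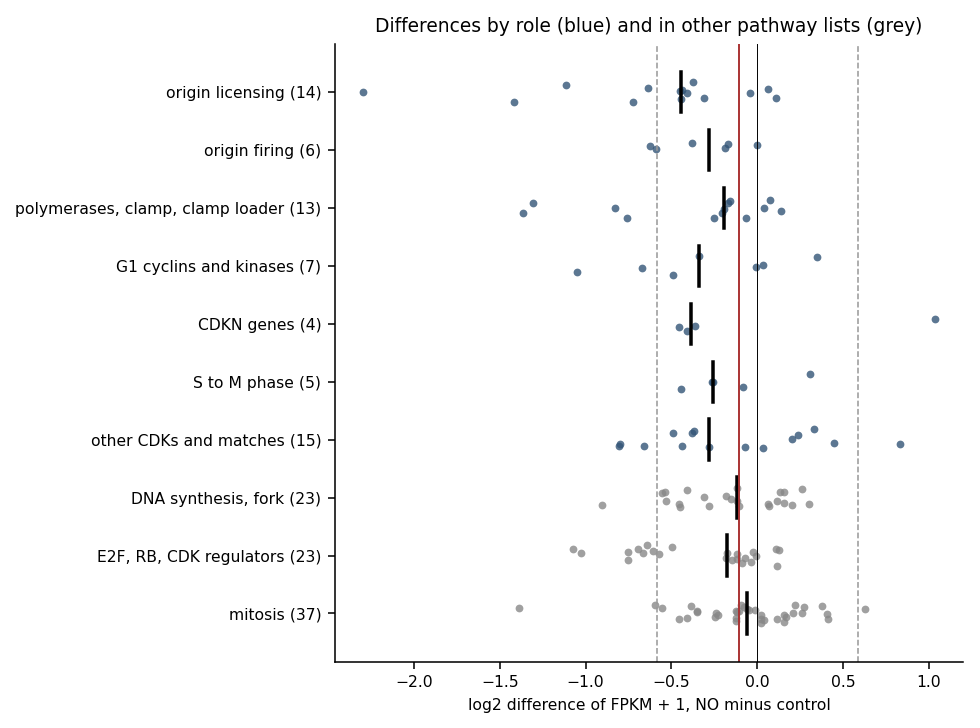
Log2 difference of FPKM + 1 (NO minus control, horizontal axis) of each measured member by role in blue, and of 3 lists of related genes outside the rule in grey, with the number of genes in brackets. Black bars are group medians, the red line is the median of all genes at −0.11 and dashed lines mark 1.5-fold; origin licensing has the lowest group median, −0.44, and CDC6 is the lowest point at −2.29.

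Origin licensing had the lowest median of the groups, −0.44, with 5 of 14 measured members at least 1.5-fold lower and 0 at least 1.5-fold higher. By the same fold 22.4% of all genes were lower and 9.59% higher. After upper quartile scaling 3 of the 14 were lower, beside 17.8% of all genes. CDC6, the ATPase that recruits the helicase to the origin (ENSGALG00000028716, chromosome 27, 4392874 to 4396015 in galGal4), was at 37.6 FPKM (35.1 to 40.1) in control and 6.87 FPKM (6.10 to 7.64) in NO. It had the largest difference of all members, 4.90-fold lower. CDT1, its partner in loading (ENSGALG00000013784, chromosome 11, 17932051 to 17935844), was at 68.1 FPKM (65.7 to 70.6) in control and 24.9 FPKM (23.8 to 26.0) in NO, 2.67-fold lower. Geminin, the inhibitor of CDT1 (ENSGALG00000013626, chromosome 2, 90214220 to 90222893), was at 31.5 FPKM (29.3 to 33.6) and 32.9 FPKM (30.9 to 34.9), in control and NO in that order, and these intervals overlap. The ratio of geminin to CDT1 transcript levels per length was therefore 0.462 (0.428 to 0.499) in control and 1.32 (1.23 to 1.42) in NO, so the inhibitor was the less abundant transcript in the first library and the more abundant one in the second. CDC6 was 3.13 times the level of ORC1, the ATPase it binds beside, in control and 0.762 times in NO.

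The measured helicase subunits were all lower, but unequally. MCM5 (ENSGALG00000012546, chromosome 1, 51939574 to 51947830) was the most abundant of the 5 measured subunits in control at 112 FPKM (109 to 114) and was at 51.0 FPKM (49.7 to 52.3) in NO, 2.17-fold lower. MCM3 was at 64.4 and 38.6 FPKM, 1.65-fold lower, and MCM4 at 47.7 and 34.8 FPKM, 1.36-fold lower. MCM2 (ENSGALG00000006037, chromosome 12, 9725752 to 9737075) was at 69.9 FPKM (68.3 to 71.5) and 52.3 FPKM (51.2 to 53.4), a log2 difference of −0.41, and MCM6 was at 70.0 and 56.3 FPKM, with −0.31. These subunits form a ring together with MCM7, which has no row here, with 1 copy of each. Among the 5 measured subunits the highest level was 2.34 times the lowest in control and 1.62 times in NO. Their levels were thus more even in the NO library. MCM5 was 1.60 times the level of MCM2 in control (1.55 to 1.65) and 0.975 times in NO (0.944 to 1.01).

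The origin recognition complex, which marks the sites where the helicase is loaded, was divided. ORC5 was at 8.95 and 5.39 FPKM, 1.56-fold lower, and ORC6 at 29.2 and 21.2 FPKM, ORC3 at 10.8 and 7.70 FPKM and ORC1 at 12.0 and 9.02 FPKM were between 1.30-fold and 1.36-fold lower. For these 4 subunits the intervals of the libraries were apart, and 43.6% of all genes had intervals apart and lower. Intervals narrow with depth, which was not matched in this comparison. ORC2 was at 9.87 and 9.55 FPKM and ORC4 at 33.1 and 35.8 FPKM, and both had overlapping intervals; the difference of ORC2, −0.04, became 0.08 after trimmed mean scaling. ORC4 had the highest level in both libraries, but its control interval overlaps that of ORC6. ORC5 had the lowest level in both, though in control its interval overlaps that of ORC2. The ratio of ORC4 to ORC5 was 3.70 in control and 6.65 in NO.

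**Figure D2:**
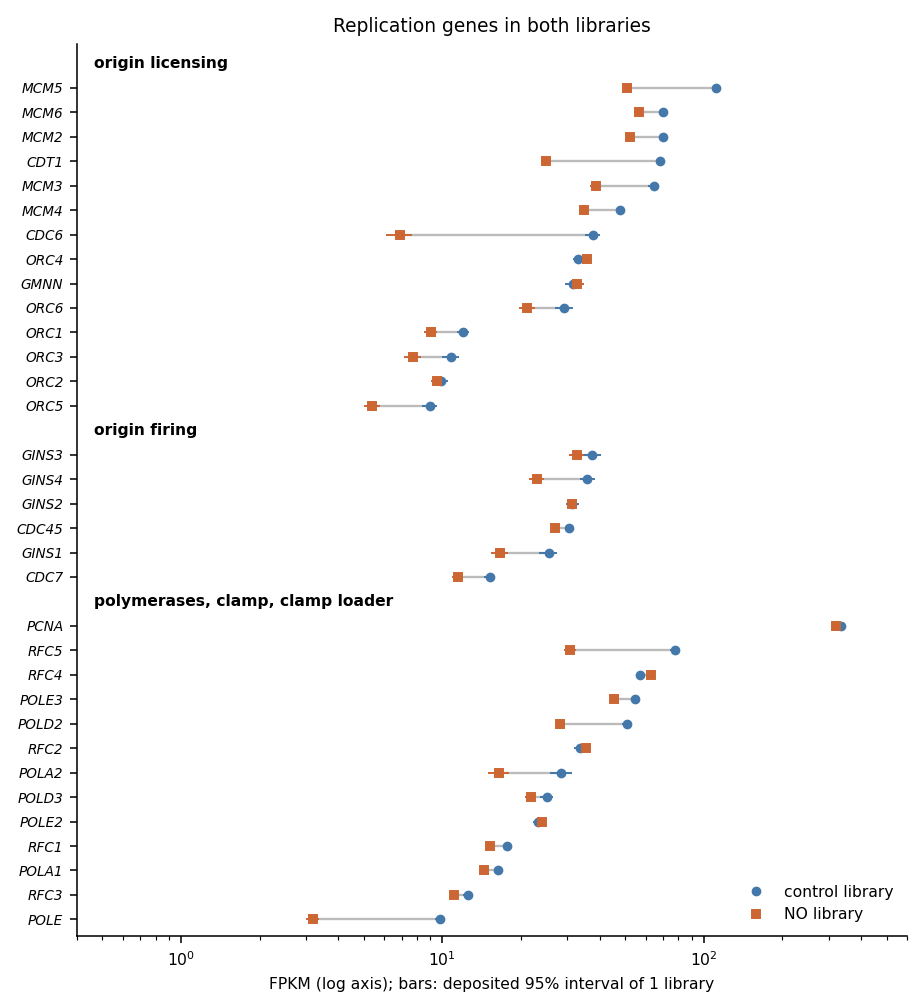
FPKM (log axis) of the 33 measured genes of origin licensing, origin firing and the polymerase, clamp and clamp loader group in the control library (blue circles) and the NO library (orange squares), with the deposited 95% interval of each library as a bar. CDC6 (37.6 and 6.87 FPKM) and POLE (9.78 and 3.19 FPKM) have the widest gaps, and PCNA (336 and 322 FPKM) is the most abundant.

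Origin firing genes were lower or near the control, with 2 of 6 measured members at least 1.5-fold lower, 0 at least 1.5-fold higher and a median of −0.28. Both lower genes lie close to the fold used. The count was 0 of 6 with a pseudocount of 5 and after trimmed mean or upper quartile scaling. It was also 0 against the chromosome size class described below. The lower shares of all genes were then 13.2%, 18.04%, 17.8% and 17.0%, in that order. GINS4 (ENSGALG00000026581, chromosome 22, 2588925 to 2591368) was at 35.9 FPKM (33.5 to 38.3) in control and 22.9 FPKM (21.5 to 24.4) in NO, 1.54-fold lower. GINS1 (ENSGALG00000008538, chromosome 3, 15743296 to 15746220) was at 25.5 FPKM (23.5 to 27.5) and 16.6 FPKM (15.4 to 17.9), 1.504-fold lower. The other subunits of this 4-part complex differed less: GINS2 was at 31.4 FPKM in both libraries and GINS3 at 37.3 and 32.6 FPKM, with overlapping intervals for each. For GINS3 the combined interval of the log2 difference, −0.34 to −0.03, nevertheless leaves out 0. The GINS transcripts were the most even of the complexes of 3 or more subunits in control, where the highest was 1.46 times the lowest, and the ratio was 1.97 in NO. CDC7, the kinase that triggers firing (ENSGALG00000006051, chromosome 8, 13442245 to 13459969), was at 15.2 FPKM (14.5 to 15.96) and 11.5 FPKM (10.9 to 12.0), 1.30-fold lower. CDC45, which joins MCM and GINS at the fork, was at 30.6 and 27.0 FPKM, a difference of −0.17 that became 0.044 against its chromosome size class; that of GINS3 likewise went from −0.19 to 0.031.

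Among polymerases, the clamp and its loader, 4 of 13 members were at least 1.5-fold lower (22.4% of all genes) and 0 at least 1.5-fold higher (9.59%). The median was −0.19. The number lower stayed at 4 after trimmed mean or upper quartile scaling, beside 18.04% and 17.8% of all genes. Against the chromosome size class described below, 2 were lower and 1 was higher, beside 17.0% and 12.8% of all genes. POLE, the catalytic subunit of the leading strand polymerase epsilon (ENSGALG00000007665, chromosome 15, 10007213 to 10026784), was at 9.78 FPKM (9.35 to 10.2) in control and 3.19 FPKM (3.001 to 3.37) in NO, 2.57-fold lower. Its partner subunit POLE2 was at 23.3 and 24.0 FPKM with overlapping intervals, and POLE3, a histone-fold subunit that also serves in chromatin remodelling, at 54.3 and 45.5 FPKM. The level of POLE was 0.419 times that of POLE2 in control (0.393 to 0.447) and 0.133 times in NO (0.124 to 0.142). RFC5 (ENSGALG00000026517, chromosome 15, 11205594 to 11207716) was at 77.8 FPKM (74.5 to 81.1) and 30.8 FPKM (29.3 to 32.3), 2.48-fold lower. It was the most abundant of the 5 RFC transcripts in control and the third in NO. The other RFC genes had differences from −0.20 to 0.14 on the log2 scale: RFC4 was at 57.0 and 62.9 FPKM, RFC2 at 33.7 and 35.5 FPKM, RFC1, the large subunit, at 17.7 and 15.2 FPKM and RFC3 at 12.5 and 11.0 FPKM.

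POLD2, the accessory subunit of the lagging strand polymerase delta (ENSGALG00000026234, on the unplaced contig JH376336.1), was at 50.8 FPKM (48.5 to 53.1) in control and 28.2 FPKM (26.9 to 29.4) in NO, 1.78-fold lower, and POLD3 was at 25.03 and 21.8 FPKM. POLA2, of the polymerase alpha and primase complex, was at 28.5 and 16.5 FPKM, 1.69-fold lower, and its catalytic partner POLA1 at 16.3 and 14.5 FPKM. PCNA, the sliding clamp (ENSGALG00000000169, chromosome 22, 334052 to 336642), had the highest level of all members in both libraries at 336 FPKM (328 to 343) in control and 322 FPKM (316 to 328) in NO. In NO its interval overlaps that of CDK1, at 311 FPKM (297 to 324), so PCNA and CDK1 could not be ordered there. The difference of PCNA, −0.06, turned to 0.08 after trimmed mean scaling, so PCNA gave no direction that held across scalings. In the alpha and delta polymerases the subunit that was more abundant in control had the larger difference as deposited. The ratio between the subunits went from 1.76 to 1.14 and from 2.03 to 1.29. This order did not hold against the chromosome size class described below. There POLA2 was at −0.09 and POLA1 at −0.13, and POLD2 at −0.160 and POLD3 at −0.165.

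**Figure D3:**
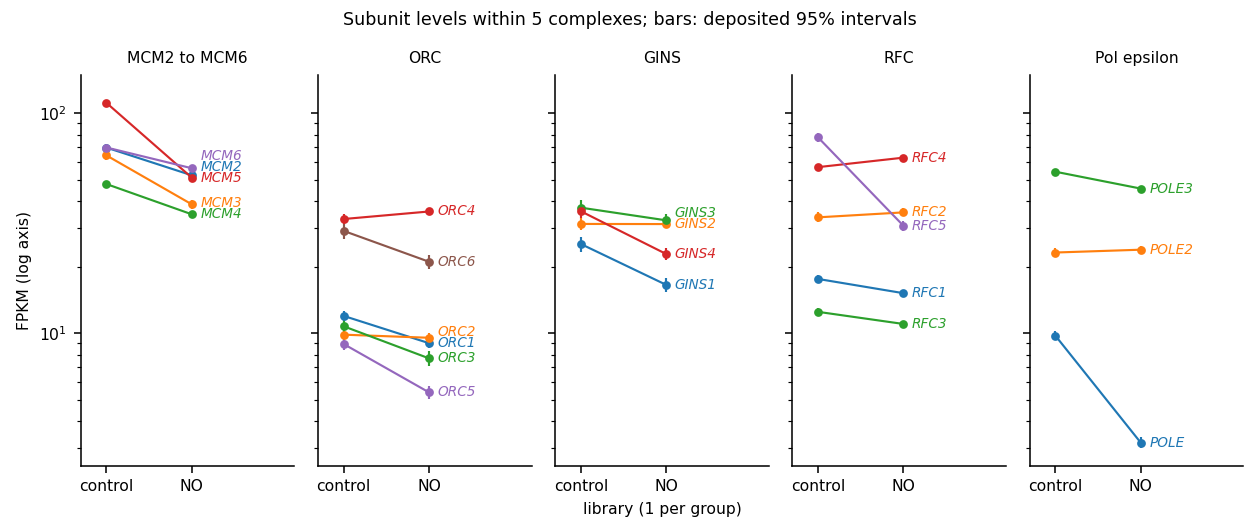
FPKM (log axis) of the subunits of 5 replication complexes in the control and NO libraries, with deposited 95% intervals as bars and a line joining the values of each gene. The line of MCM5 meets that of MCM2, that of RFC5 crosses RFC4 and RFC2, and that of POLE departs from POLE2 and POLE3.

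The cyclins of G1 differed by family member. Of the 7 measured genes of G1 entry, 2 were at least 1.5-fold lower (22.4% of all genes) and 0 at least 1.5-fold higher (9.59%). Their median was −0.34. With a pseudocount of 5, or after trimmed mean or upper quartile scaling, CCNE2 was no longer counted and the number was 1. The lower shares of all genes were then 13.2%, 18.04% and 17.8%, in that order. CDC25A, the phosphatase that removes the inhibitory mark from CDK2 and CDK1 (ENSGALG00000004934, chromosome 2, 565707 to 578601), was at 18.4 FPKM (17.1 to 19.7) in control and 8.37 FPKM (7.71 to 9.03) in NO, 2.07-fold lower. CCNE2 (ENSGALG00000015985, chromosome 2, 126151226 to 126161848) was at 11.7 FPKM (10.8 to 12.6) and 6.96 FPKM (6.42 to 7.51), 1.59-fold lower. CCNE1 was at 10.9 FPKM (10.2 to 11.6) and 8.40 FPKM (7.91 to 8.90), with a difference of −0.34. The E cyclins could not be ordered in control, where their intervals overlap, whereas CCNE1 was the higher in NO. CDK2, the kinase that both activate, was at 34.6 and 34.5 FPKM with overlapping intervals.

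Among D cyclins, which link growth signals to the cycle, CCND1 (ENSGALG00000007555, chromosome 5, 16827733 to 16840932) was at 41.3 FPKM (39.2 to 43.4) in control and 29.1 FPKM (27.8 to 30.5) in NO, 1.40-fold lower. CCND2 (ENSGALG00000017283, chromosome 1, 73303862 to 73342549) was at 11.3 FPKM (9.97 to 12.6) and 11.6 FPKM (10.5 to 12.6), with overlapping intervals. CCND3 was at 12.9 FPKM (11.9 to 13.8) and 16.6 FPKM (15.8 to 17.4), a difference of 0.35. The members thus lay on different sides of the control, and CCND1 was 3.21 times CCND3 in control and 1.75 times in NO. CCND1 led in both libraries; CCND3 and CCND2 overlapped in control and were apart in NO.

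Of the CDKN genes, 4 of 7 were measured, with 1 higher (9.59% of all genes) and 0 lower (22.4%) by 1.5-fold or more. CDKN3, a phosphatase that removes the activating phosphate of CDK2 and CDK1 (ENSGALG00000012220, chromosome 5, 56364321 to 56370334), was at 5.70 FPKM (4.79 to 6.61) in control and 12.7 FPKM (11.6 to 13.9) in NO, 2.05-fold higher. No other member was 2-fold higher with 1 FPKM added to each level; without that addition CDKN3 was at 2.23 times its control level and CDK15, described below, at 2.68 times. CDKN1B, the inhibitor p27 (ENSGALG00000022980, chromosome 1, 72273762 to 72277034), was at 29.4 FPKM (27.7 to 31.0) and 21.8 FPKM (20.7 to 22.9), a difference of −0.41. CDKN1A, the inhibitor p21 induced by p53 (ENSGALG00000028318, chromosome 26, 1543127 to 1545030), was at 4.08 FPKM (3.38 to 4.77) and 2.96 FPKM (2.52 to 3.39), and these intervals overlap. CDKN2AIP, whose product binds the ARF tumour suppressor (ENSGALG00000010661, chromosome 4, 39278893 to 39281865), was at 28.6 FPKM (27.1 to 30.2) and 20.6 FPKM (19.6 to 21.6), a difference of −0.46. The CDKN genes below the minimum were near or at 0: CDKN2A was listed at 0 in both libraries, CDKN2B at 0.140 FPKM and 0, and CDKN2C at 0 and 0.0256 FPKM. The row of CDKN2A is short, from 78460778 to 78460957 on chromosome Z.

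The genes that act from S phase to mitosis were abundant, and their median was −0.26. Of 5 measured members, 0 were at least 1.5-fold lower or higher, beside 22.4% lower and 9.59% higher among all genes. The deposited intervals were apart for all 5, with 4 lower and 1 higher. Among all genes they were apart and lower for 43.6% and apart and higher for 27.4%. Depth was not alike, with a median of 3806 implied fragments in control and 5559 in NO for the 5 genes, against 715 and 977 for all genes. CDK1, the kinase of mitotic entry (ENSGALG00000003085, chromosome 6, 8142505 to 8170935), was at 251 FPKM (240 to 263) in control and 311 FPKM (297 to 324) in NO, 1.24-fold higher and with intervals apart. The cyclins that activate it did not share this direction as deposited. CCNA2 (ENSGALG00000011881, chromosome 4, 53350909 to 53356114) was at 47.0 FPKM (45.1 to 48.9) and 39.0 FPKM (37.6 to 40.4), and CCNB3, a cyclin of mitosis and meiosis, at 102 and 84.9 FPKM. CCNB2 (ENSGALG00000004161, chromosome 10, 6313607 to 6321500) was at 96.4 FPKM (94.0 to 98.7) and 91.0 FPKM (89.2 to 92.9), a difference of −0.08 that became 0.06 after trimmed mean scaling. The RefSeq table lists CCNB2 as another name of the gene it calls CCNB1. Which of these B cyclins the row named CCNB2 measures was therefore not settled here. CDC20, the activator of the anaphase-promoting complex (ENSGALG00000009971, chromosome 8, 18577132 to 18582553), was at 110.3 FPKM (107 to 113) and 80.7 FPKM (78.7 to 82.7), a difference of −0.45. CCNA1, a cyclin known mainly from the germ line in mammals, was at 0.337 and 0.327 FPKM, below the minimum.

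**Figure D4:**
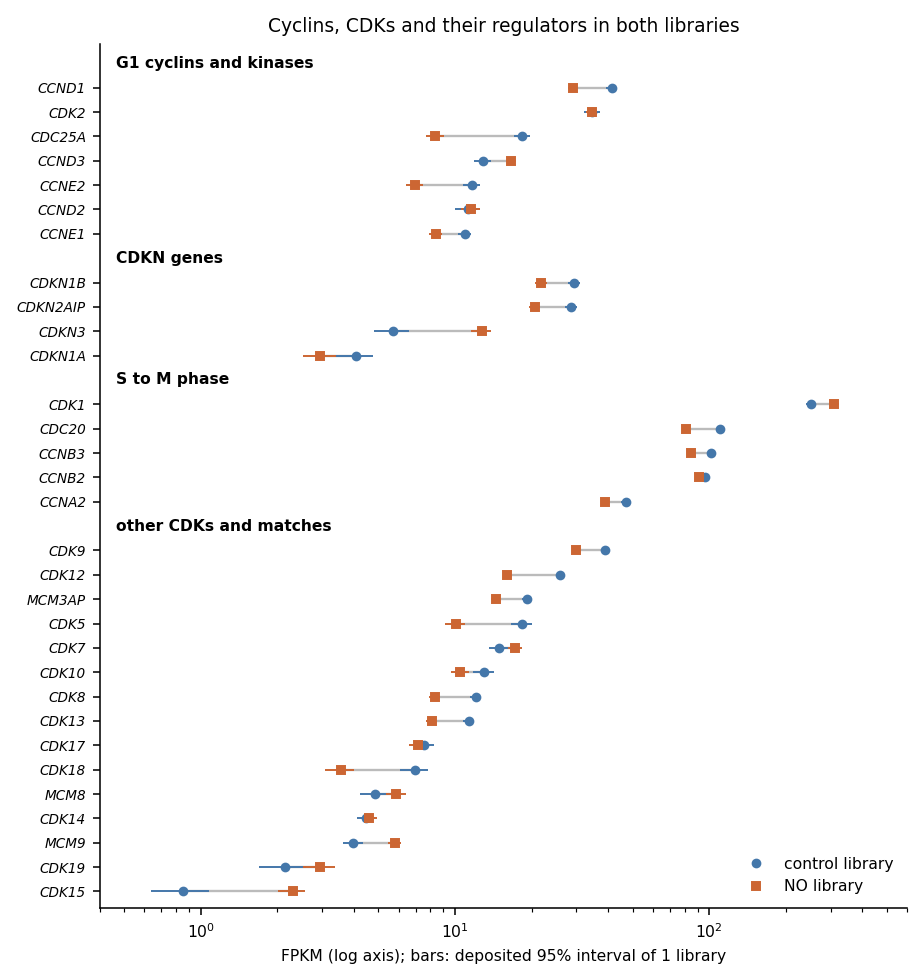
FPKM (log axis) of the 31 measured cyclins, CDKs, CDKN genes and other matches of the rule in the control library (blue circles) and the NO library (orange squares), with the deposited 95% interval of each library as a bar. CDC25A (18.4 and 8.37 FPKM) and CDKN3 (5.70 and 12.7 FPKM) have wide gaps in opposite directions, and CDK1 is the most abundant in both libraries.

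The rule also takes in 16 genes that act mostly outside the cycle, of which 15 were measured. Of these, 3 were lower and 1 higher by 1.5-fold or more, beside 22.4% and 9.59% of all genes. With a pseudocount of 5, 1 was lower, beside 13.2% of all genes. CDK5, a kinase best known from neurons (ENSGALG00000028442, on the unplaced contig AADN03022870.1), was at 18.3 FPKM (16.5 to 20.0) in control and 10.05 FPKM (9.12 to 11.0) in NO, 1.74-fold lower. CDK18 (ENSGALG00000000692, chromosome 26, 2104478 to 2112977) was at 6.96 FPKM (6.07 to 7.85) and 3.55 FPKM (3.07 to 4.02), 1.75-fold lower. CDK15 (ENSGALG00000008428, chromosome 7, 11084221 to 11117761) was at 0.855 FPKM (0.637 to 1.07) and 2.30 FPKM (2.02 to 2.58), 1.78-fold higher; it passed the minimum only through the NO library, and its log2 difference ran from 0.32 with a pseudocount of 5 to 1.33 with one of 0.1. CDK3 was below the minimum at 0.0799 and 0.0160 FPKM.

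Several CDKs act in transcription by RNA polymerase II. CDK12 was at 25.9 and 16.02 FPKM, 1.58-fold lower, and was not counted as lower with a pseudocount of 5, after trimmed mean or upper quartile scaling or against its chromosome size class. Its relative CDK13 was at 11.3 and 8.09 FPKM, and CDK9, the elongation kinase, at 39.0 and 29.98 FPKM. CDK8 of the Mediator complex was at 12.1 and 8.31 FPKM, while its paralogue CDK19 was at 2.14 and 2.96 FPKM with overlapping intervals. CDK7, which both activates cell cycle CDKs and phosphorylates RNA polymerase II, was at 14.8 and 17.3 FPKM, also overlapping. MCM8 and MCM9, helicase relatives that serve in DNA repair by recombination, lay above the control, MCM8 at 4.83 and 5.87 FPKM with overlapping intervals and MCM9 at 3.98 and 5.79 FPKM with intervals apart. MCM3AP, a factor of mRNA export, was at 19.2 and 14.5 FPKM, CDK10 at 13.0 and 10.5 FPKM, CDK17 at 7.56 and 7.15 FPKM and CDK14 at 4.49 and 4.61 FPKM.

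Other genes of the same processes, taken from lists of textbook members, are given here for context. Of 23 measured genes of DNA synthesis and the fork, 1 was at least 1.5-fold lower and 0 higher, beside 22.4% and 9.59% of all genes. The median of this list was −0.12 and became 0.01 after trimmed mean scaling. The enzymes TK1 (thymidine kinase), at 56.5 and 29.7 FPKM, FEN1 (flap endonuclease), at 88.9 and 60.2 FPKM, and LIG1 (DNA ligase), at 47.3 and 32.3 FPKM, and the fork protein WDHD1, at 11.2 and 7.42 FPKM, had the largest differences, from −0.90 to −0.53. The subunits RPA1 and RPA3 of the single-strand binding protein had 0.13 and 0.16, and RPA2 had −0.18.

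Of 23 measured E2F and RB family genes and regulators of CDKs, 8 were at least 1.5-fold lower and 0 higher, with a median of −0.17. By the same fold 22.4% of all genes were lower and 9.59% higher. After trimmed mean scaling 4 of the 23 were lower, beside 18.04% of all genes. E2F2, a transcription factor of S phase genes, was at 5.57 and 2.13 FPKM, a difference of −1.07, and E2F1, its close relative, was at 24.2 and 15.6 FPKM, with −0.61. CKS1B, a small partner of CDKs, was at 383 and 188 FPKM, with −1.02. The checkpoint kinase CHEK2 was at 7.76 and 4.19 FPKM, with −0.76, and MYBL2, a transcription factor of cycling cells, at 25.3 and 14.6 FPKM, with −0.75. RB1, the retinoblastoma protein that holds E2F factors in check, was at 10.8 and 10.04 FPKM, with −0.09.

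Of 37 measured mitosis genes, 2 were lower and 1 higher by 1.5-fold or more, beside 22.4% and 9.59% of all genes. The median of this list was −0.06 and became 0.07 after trimmed mean scaling. ESPL1, the protease separase, was at 31.7 and 11.5 FPKM, a difference of −1.39, and PLK4, the kinase of centriole duplication, at 21.9 and 14.1 FPKM, with −0.60. ANLN, the cytokinesis protein anillin, was at 18.6 and 29.3 FPKM, with 0.63. TOP2A, the topoisomerase of dividing cells, was at 86.7 and 58.7 FPKM, with −0.55, and the proliferation marker MKI67 at 18.1 and 16.6 FPKM, with −0.12.

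Differences also varied with chromosome size class, a grouping chosen after the data were seen. Unplaced contigs were taken as a class of their own, although being unplaced is not a size. The median of all measured genes was −0.03 on chromosomes 1 to 5, −0.05 on chromosomes 6 to 10, −0.22 on smaller numbered chromosomes (microchromosomes) and −0.67 on unplaced contigs. Members had medians of −0.26, −0.08, −0.37 and −0.76 in the same order, over 28, 11, 19 and 5 genes. CDC6, CDT1, POLE and RFC5 lie on microchromosomes, MCM5 and CDC25A on chromosomes 1 and 2, and POLD2, POLA2, CDK5, CDK2 and RFC2 on unplaced contigs. Set against the median of their own class, 10 members were at least 1.5-fold lower and 4 higher, beside 17.0% and 12.8% of all genes. CDC6, CDT1, MCM5, POLE, RFC5 and CDC25A were among the 10, whereas POLD2, POLA2 and CDK5 were not, and CDK2 and RFC2 moved to the higher side. The part of chromosome class in the differences was not tested.

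**Figure D5:**
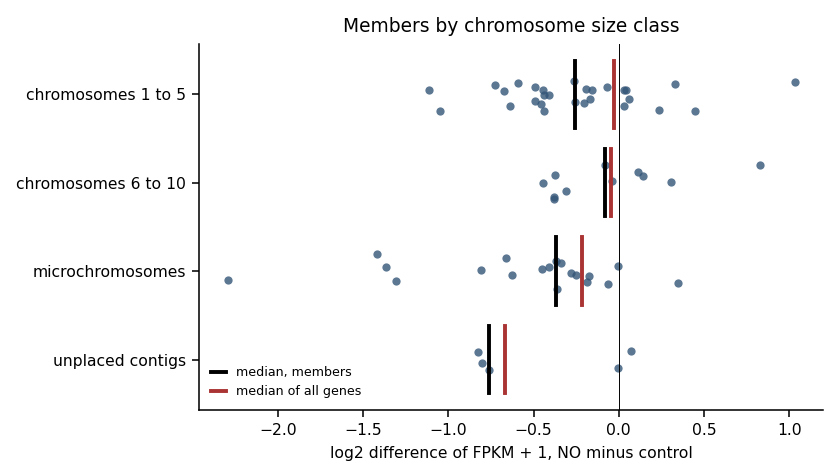
Log2 difference of FPKM + 1 (NO minus control, horizontal axis) of measured members by chromosome size class, with the median of members in black and that of all genes of the class in red; the 1 measured member on the Z chromosome is left out. The red medians run from −0.03 on chromosomes 1 to 5 to −0.67 on unplaced contigs, and the 4 lowest members lie on microchromosomes.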

How the data were processed

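Per the series design text, RNA of pooled hearts was sequenced on an Illumina instrument, STAR 2.4.2a aligned the reads to galGal4 (Ensembl release 81) and Cufflinks 2.2.1 gave expression estimates. Strand and RNA selection are not given in the sources used here. The sample records also name Cuffdiff, and its part in the deposited values was not examined. These values are the authors' FPKM with 95% intervals. They sum to 487268 (control) and 536333 (NO), and no scaling between libraries is recorded.

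The 17108 rows of each library were joined by Ensembl identifier, and rows of a symbol were summed. Genes averaging 1 FPKM or more were kept, and log2 differences of FPKM + 1 were taken. Both interval widths were combined in quadrature on that scale. Overlap of deposited intervals is therefore not the same as no difference. For GINS3, ORC4, CDKN1A, CDK7, CDK19 and MCM8 the deposited intervals overlap, but the combined interval leaves out 0. Taking an interval as 2 SD to each side, the squared ratio of FPKM to SD gives implied fragments, 18246222 (control) and 28767956 (NO) over all genes, which are lower limits. Deposited starts were read as counted from 0, and 1 was added: 11 of 13 mitochondrial genes with a symbol then had a length divisible by 3, against 0 on the other reading. A RefSeq gene table of another assembly held 68 of the 69 symbols.

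The members and lists were chosen with earlier results of these data known. Intervals were given for the 3 largest differences in each role group and for 10 fixed genes with a row. They were also given for CCNE1 and CCND3, which belong to neither set. From each related list the 4 largest differences were named, and RPA1, RPA2, RPA3, E2F1, RB1 and MKI67 were added after their values were seen. Alternatives were pseudocounts of 0.1 and 5, 3 scalings (trimmed mean, upper quartile, and sums without mitochondrial, globin and the 20 most abundant genes), no minimum or one of 5 FPKM, counting at 2-fold, the highest row of a symbol, and, chosen after the data were seen, chromosome size class. The calculation was tested on simulated data. Python 3.11.15 with numpy 2.4.6 and pandas 2.3.3 was used.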

Additional observations from a re-analysis of the deposited data

How the results depend on the processing

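With 1 library per group no setting leaves out a replicate, and no paired analysis was possible because each group has a single library. The number of members at least 1.5-fold lower was 16 as reported, 10 with a pseudocount of 5, after upper quartile scaling and against the chromosome size class, and 6 when counted at 2-fold. The lower share of all genes moved with it, so that 15.6% of members stood beside 13.2% of all genes with a pseudocount of 5, 17.8% after upper quartile scaling and 17.0% against the class. The number higher was 2 as reported and 1 with a pseudocount of 5, with a minimum mean of 5 FPKM and at 2-fold. It was 4 against the chromosome size class. The higher shares of all genes were 9.59%, 5.36%, 9.76%, 3.65% and 12.8%, in that order.

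Trimmed mean and upper quartile scaling moved the median of all genes from −0.11 to 0.01 and 0.02, and the share of higher genes among all 1.5-fold differences from 30.02% to 41.8% and 42.6%. The median of all members, −0.32 as reported, was −0.19 under both and −0.16 against the chromosome size class. Under trimmed mean and upper quartile scaling, in that order, the licensing median was −0.31 and −0.30, firing −0.15 and −0.14, polymerases and clamp −0.059 and −0.051, and S to M phase −0.12 and −0.11; the G1 median was −0.21 after the latter. Against the class medians G1 was at −0.12, firing at −0.15 and the other CDKs at −0.066. With no minimum, the CDKN median was −0.19 and that of S to M phase −0.17. The cause of these moves was not tested; each scaling shifts all genes together by construction.

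No group median changed sign, and CDC6 ranged from −2.44 to −1.84, CDT1 from −1.45 to −1.20, MCM5 from −1.13 to −0.97, POLE from −1.59 to −0.85, RFC5 from −1.33 to −1.09, CDC25A from −1.13 to −0.81 and CDKN3 from 0.73 to 1.17 over all settings. The sign of PCNA, CCNB2, CDK2, CDK17, GINS2 and ORC2 turned under both scalings, and that of CDC45, GINS3, PCNA, CDK2, GINS2 and ORC2 against the chromosome size class.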

Other observations

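The symbol cdk6, spelled in lower case in the annotation and so outside the rule, was at 7.13 FPKM in control and 8.51 FPKM in NO, a log2 difference of 0.23 (0.01 to 0.45).

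Cyclins outside the A, B, D and E families were looked at after their values were seen. Of 17 measured, 3 were at least 1.5-fold lower (22.4% of all genes) and 0 higher (9.59%), with a median of −0.13. CCNT1, the cyclin partner of CDK9, was at 24.6 and 11.3 FPKM, a difference of −1.06, and CCNT2, its paralogue, at 6.51 and 7.41 FPKM, with 0.16. CCNL2 and CCNL1, cyclins tied to splicing, had −0.59 and −0.58. CCNI was the highest at 0.49.

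Of 17 other measured CDC and CDCA genes, chosen in the same way, 3 were at least 1.5-fold lower (22.4% of all genes) and 0 higher (9.59%). CDCA3 was at 80.1 and 34.0 FPKM, a difference of −1.21. CDC26, CDC16, CDC27 and CDC23, which are subunits of the anaphase-promoting complex, had differences of −0.69, −0.19, 0.11 and 0.18.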
